A study of Homo sapiens with 2 samples.

Results

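The internal transcribed spacers ITS1 and ITS2 and the 5.8S rRNA between them were examined in pre-rRNA from mitotic HCT116 cells, a human colorectal carcinoma line. They cover 31 of the 142 bins in which reads were counted along the 45S rDNA, and were chosen by position, namely positions 5528 to 6622 for ITS1 with 11 bins, 6623 to 6779 for 5.8S with 8 bins and 6780 to 7934 for ITS2 with 12 bins. All cells were treated overnight with colcemid, which stops cells in prometaphase by blocking spindle microtubules, and were lysed with the detergent buffer NETN100. Total RNA was taken from the soluble fraction and from the pellets, which hold the condensed chromosomes and whatever else stayed insoluble, and 1 library was sequenced for each fraction. The soluble library held 6140899 rDNA reads and the pellet library 3564013. There is no replicate, so no difference between the fractions was tested, and every interval given is a 95% interval for counting error alone. These intervals take reads as independent and may be too narrow, since reads copied by PCR without molecular identifiers cannot be taken as independent molecules. The rest of the transcriptome was not used here, so no marker of the cytoplasm or of the chromosomes was used to check the fractions.

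RNA polymerase I transcribes the rRNAs as a single long precursor in which ITS1 separates 18S from 5.8S, and ITS2 separates 5.8S from 28S. A cut in ITS1 parts the precursors of the small subunit, such as 30S, 21S and 18S-E pre-rRNA, from those of the large subunit, such as 32S pre-rRNA. The small-subunit precursors keep the 18S side of ITS1, and the final form, 18S-E, is trimmed in the cytoplasm. The large-subunit precursor 32S carries 5.8S, the whole of ITS2 and 28S, and a later cut in ITS2 leaves 12S pre-rRNA, which is 5.8S with the 5.8S side of ITS2. Neither spacer is part of mature ribosomes, while 5.8S is a component of the large subunit.

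The sequences at the borders are shown because most reads of the spacers were counted at the 18S end of ITS1 and near both ends of ITS2. The end of ITS1 at 5.8S, which held few reads, is shown beside them, and 5.8S is shown because its reads were unevenly placed. They were taken from the copy RNA45SN1 on the plus strand of chromosome 21 in GRCh38, with borders from RefSeq. The reads were counted on another 45S sequence, so GRCh38 positions and bin positions are not interchangeable: in RNA45SN1, ITS1 has 1077 bp and ITS2 has 1167 bp, against 1095 bp and 1155 bp in the counted sequence. The 5.8S sequence has 157 bp in both, and was identical in the 3 copies RNA45SN1, RNA45SN2 and RNA45SN3, whereas the ITS1 and ITS2 sequences of RNA45SN1 differed from those of the other 2 copies. GC content was 79.9% in ITS1, 57.3% in 5.8S and 83.1% in ITS2. In the next line, which is chr21:8439822-8439978, capitals mark bases 21 to 80 of 5.8S, by their distance from its first base the stretch of bins 2 to 4, where no soluble read was counted.
5.8S: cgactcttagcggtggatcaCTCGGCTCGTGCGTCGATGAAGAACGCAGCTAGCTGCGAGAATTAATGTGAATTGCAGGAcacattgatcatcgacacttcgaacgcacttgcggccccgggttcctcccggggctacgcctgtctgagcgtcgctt
In the next 4 lines, capitals mark the 20 bases of the mature rRNA that adjoin the spacer. The first is chr21:8438725-8438844, with the first 100 bases of ITS1, and the second is chr21:8439727-8439841, with the last 95.
18S end and ITS1 start: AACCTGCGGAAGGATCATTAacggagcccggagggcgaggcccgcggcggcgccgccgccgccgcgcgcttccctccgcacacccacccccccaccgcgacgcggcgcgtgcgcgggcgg
ITS1 end and 5.8S start: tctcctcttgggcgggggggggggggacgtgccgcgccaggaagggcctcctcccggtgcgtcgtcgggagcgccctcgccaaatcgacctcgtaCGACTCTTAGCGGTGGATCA
The third is chr21:8439959-8440078, with the first 100 bases of ITS2, and the fourth is chr21:8440991-8441165, with the last 155.
5.8S end and ITS2 start: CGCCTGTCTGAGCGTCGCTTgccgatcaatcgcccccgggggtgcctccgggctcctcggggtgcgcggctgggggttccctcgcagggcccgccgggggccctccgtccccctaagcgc
ITS2 end and 28S start: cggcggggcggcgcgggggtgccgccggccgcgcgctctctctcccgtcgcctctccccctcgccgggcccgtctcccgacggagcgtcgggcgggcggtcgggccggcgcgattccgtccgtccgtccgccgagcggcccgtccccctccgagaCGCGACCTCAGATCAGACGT

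The stretch from ITS1 to ITS2 was far more abundant among the rDNA reads of the pellet fraction. It held 118098 reads in the pellet library, which is 3.31% of the rDNA reads (Wilson interval 3.30% to 3.33%), and 8091 in the soluble library, which is 0.132% (0.129% to 0.135%). Scaled to counts per 1000000 rDNA reads (CPM) of its library, the stretch had 25.1 times more signal in the pellets than in the soluble fraction (interval 24.6 to 25.7). These values are shares of the rDNA reads of a fraction and not amounts per cell, so more spacer RNA and less mature rRNA cannot be told apart. The ratio was 29.0 for ITS1 (27.8 to 30.3), 33.2 for 5.8S (25.1 to 44.1) and 23.6 for ITS2 (23.0 to 24.3). The ratio of ITS1 was 1.23 times that of ITS2 (1.17 to 1.29), and the interval of this quotient did not include 1. Against the 5'ETS, the spacer ahead of 18S, with a ratio of 30.8, the quotient was 0.942 for ITS1 (0.895 to 0.991), 0.766 for ITS2 (0.738 to 0.796) and 1.08 for 5.8S (0.813 to 1.43). Without the first bin of ITS1, an alternative added after the data were seen, the quotient of ITS1 to the 5'ETS was 1.34 (1.24 to 1.45), so its direction rested on that bin. ITS2 had the lowest ratio of these spacers. The ratio of 5.8S was 1.41 times that of ITS2 (1.06 to 1.87), while the interval of its quotient to the 5'ETS included 1. Mature 5.8S may be largely missing from these reads, as described below. The mature 18S and 28S regions as a whole had ratios of 0.710 and 1.09.

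Of the 31 bins, 29 had reads, and all 29 had a log2 ratio above 1, computed with a pseudocount of 1 CPM. Of all 138 bins with reads along the 45S rDNA, 55.8% passed this limit. In the other direction, 0.725% of all bins had a log2 ratio below -1, and none of the 29. The 2 bins without any read were 6663 to 6682 in 5.8S and 7480 to 7579 in ITS2, where a count of 0 allows a level of up to 0.489 CPM (soluble) and 0.842 CPM (pellet). Another 2 bins, both in 5.8S, had reads in the pellet library only.

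**Figure D1:**
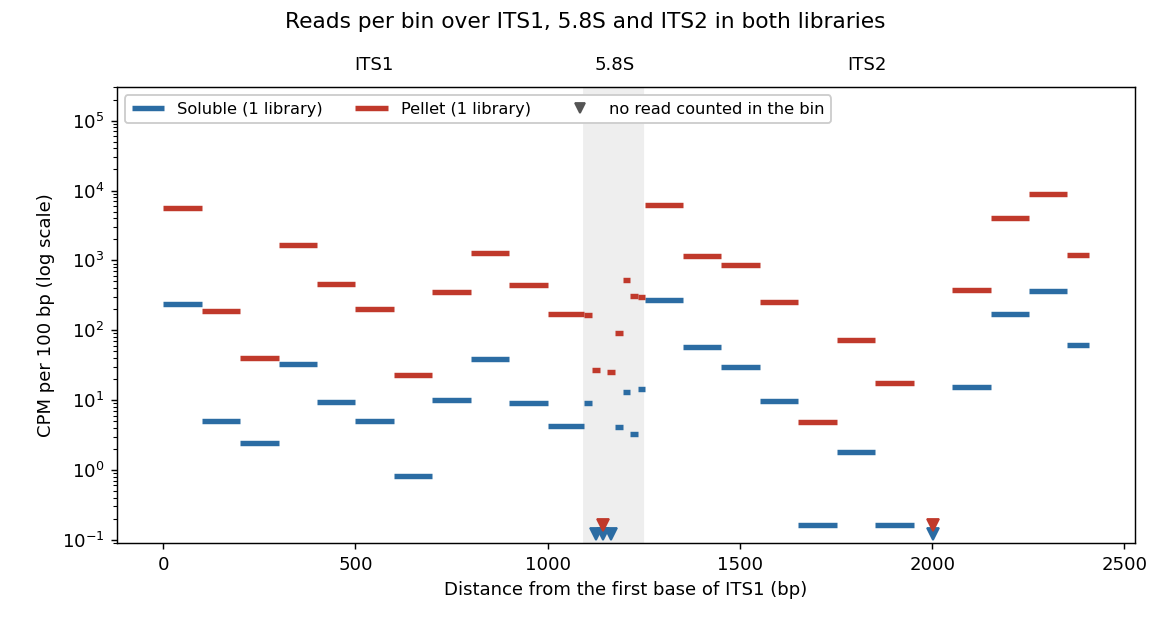
Reads per bin, as CPM per 100 bp on a log scale, against the distance from the first base of ITS1, with 1 bar per bin for the soluble library and for the pellet library and triangles for bins without reads. Both libraries had their highest bins at the 18S end of ITS1 and at both ends of ITS2, and their lowest ITS2 bins in the middle.

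The reads were concentrated in a few bins, and these were largely shared by both libraries. In ITS1, the 5 highest of the 11 bins held at least 90% of the reads in each library, and in ITS2 the 4 highest of the 12 bins did. Across the 31 bins, Spearman's rho between the reads per bp of both libraries was 0.957, which describes the bins of a pair of libraries with the same reference and bin borders and is not a test. Within ITS2 rho was 0.998 over 12 bins, within ITS1 0.961 over 11 bins and within 5.8S 0.781 over 8 bins. Levels are given below as CPM per 100 bp, since the last bin of each region is shorter than the rest. Levels at different positions of a library can also differ in how well each sequence was recovered and mapped. This was not tested, and the counting intervals of quotients of levels do not cover it. Such quotients are therefore not amounts of precursors.

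In ITS1, the bin next to 18S, from 5528 to 5627, had the highest level in both libraries. It held 1478 reads in the soluble library, or 240.7 CPM per 100 bp, and 19823 in the pellet library, or 5562. This single bin made up 9.13% of the length of ITS1, but 67.3% of its soluble reads and 53.6% of its pellet reads. Its pellet to soluble ratio was 23.1 (exact interval 21.9 to 24.4), below that of ITS1 as a whole and close to that of ITS2, with a quotient to ITS2 of 0.978 (0.922 to 1.04). The other 10 bins of ITS1 together held 718 soluble and 17183 pellet reads, and their ratio was 41.2 (38.3 to 44.4), which is 1.78 times that of the first bin (1.63 to 1.96). On the other side of the border, the last bin of 18S (5457 to 5527) had 163 reads in soluble RNA and 3929 in pellet RNA, with a ratio of 41.5 (35.5 to 48.6), the highest of the bins of 18S, which as a whole had 0.710. The ratio of the first ITS1 bin was therefore 0.556 of that of the bin just before it (0.472 to 0.656). That last bin of 18S had 37.4 CPM per 100 bp in soluble RNA and 1553 in pellet RNA. The levels of 18S as a whole were 20646 and 14658. The bin held 0.00687% of the soluble and 0.402% of the pellet reads of 18S, so its ratio covers few of them. How reads that cross a bin border were counted is not given in the sources used here, and its part in these values was not tested.

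Beyond the first bin, the level of ITS1 fell and rose again in both libraries. The next bin, from 5628 to 5727, had 5.05 CPM per 100 bp in soluble RNA and 189.4 in pellet RNA, and that from 5728 to 5827 had 2.44 and 39.8. The latter held 15 soluble reads and had the lowest ratio in ITS1, 16.3, although with a wide interval (9.56 to 29.9). A local peak followed from 5828 to 5927, with 201 soluble and 5986 pellet reads, and here the ratio was the highest in ITS1 at 51.3 (44.6 to 59.4). Its interval lay above those of the first bin and of the second local peak. The bin from 5928 to 6027 had a ratio of 48.0 (36.9 to 63.5), and the middle bin, from 6028 to 6127, had 39.8 (27.8 to 59.0).

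On the 5.8S side, the level was lowest from 6128 to 6227, with 5 soluble and 80 pellet reads and a ratio of 27.6 (11.3 to 87.2). This was the lowest bin of ITS1 in both libraries. From 6228 to 6327, 61 soluble and 1238 pellet reads were counted. The second local peak lay from 6328 to 6427, with 235 soluble and 4577 pellet reads, or 38.3 and 1284 CPM per 100 bp, and a ratio of 33.6 (29.4 to 38.4). From 6428 to 6527 there were 56 soluble and 1584 pellet reads, and the ratio was 48.7 (37.3 to 64.8). The bin that adjoins 5.8S, from 6528 to 6622, had only 25 soluble and 570 pellet reads and a ratio of 39.3 (26.3 to 61.2). The end of ITS1 at 5.8S was thus low in both libraries, unlike its end at 18S.

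**Figure D2:**
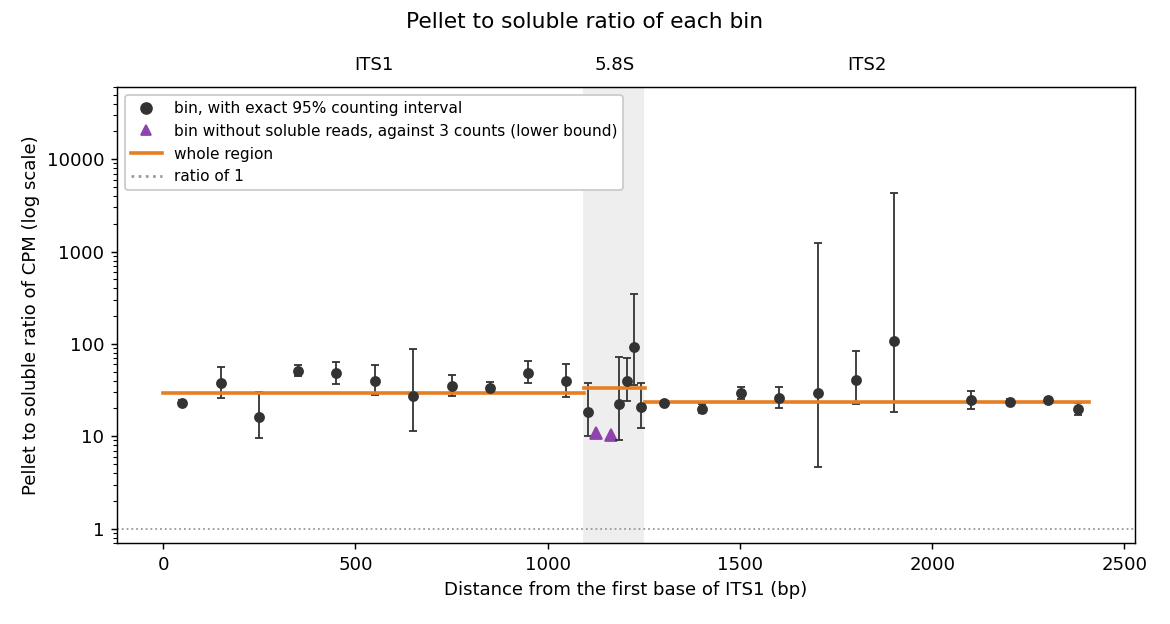
Pellet to soluble ratio of CPM for each bin on a log scale, against the distance from the first base of ITS1. Points carry exact 95% counting intervals. Triangles are ratios against 3 counts for the 2 bins of 5.8S with pellet reads only, and leave out the counting error of the pellet reads. Orange lines give the whole regions at 29.0, 33.2 and 23.6, and all 29 bins shown lie above the dotted line at 1.

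The 18S side and the 5.8S side of ITS1 were compared next, because small-subunit precursors keep the former. The sides are the first 5 and the last 5 bins, with the middle bin in neither. They were set by bin number and not by the cut in ITS1, which in human pre-rRNA lies on the 5.8S side of the middle, so the 5.8S side also holds sequence kept by small-subunit precursors. The 18S side, from 5528 to 6027, had 58.1 CPM per 100 bp in soluble RNA and 1585 in pellet RNA. The 5.8S side, from 6128 to 6622, had 12.6 and 456.2. The level of the 18S side was thus 4.62 times that of the 5.8S side in the soluble library (4.14 to 5.16) and 3.47 times in the pellet library (3.39 to 3.56). Of the reads of both sides, 82.4% lay on the 18S side in soluble RNA (80.7% to 83.9%) and 77.8% in pellet RNA (77.4% to 78.2%).

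The pellet to soluble ratio was 27.3 on the 18S side (26.0 to 28.6) and 36.3 on the 5.8S side (32.8 to 40.2). The 18S side was therefore enriched 0.752 times as much as the 5.8S side (0.671 to 0.842). This order rested on the bin next to 18S. Without it, the remaining 4 bins of the 18S side had a ratio of 47.6 (42.4 to 53.3), which is 1.31 times that of the 5.8S side (1.12 to 1.53), so the direction turned. The direction also turned with bin medians instead of sums, with a value of 1.26. Without the first bin, the level of the 18S side was 0.988 times that of the 5.8S side in the soluble library (0.850 to 1.15) and 1.29 times in the pellet library (1.26 to 1.33). The higher level of the 18S side in the soluble library was thus carried by its first 100 bp.

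In 5.8S, 51 reads were counted in soluble RNA and 984 in pellet RNA, in bins of 20 bp. Reads shorter than 20 nt were discarded, so every read longer than that touches more than 1 of these bins, and how such reads were counted is not given. Nor do the reads separate mature 5.8S from the same sequence within precursors. The effect of this on the level of 5.8S was not tested, and levels of 5.8S and of the spacers are therefore not on an equal footing. The paper proposes that mature 5.8S, being short, may have been lost during library preparation. It also reports 5.8S in soluble RNA by northern blot. The ratio of 5.8S reads therefore does not show how mature 5.8S was divided between the fractions. The reads were uneven along 5.8S. The first bin, from 6623 to 6642, had 11 reads in soluble RNA and 118 in pellet RNA, and its ratio of 18.5 (9.96 to 38.0) was the lowest among the 5 bins of 5.8S with soluble reads. Bins 2 to 4, from 6643 to 6702, the stretch in capitals above, held 0 soluble and 37 pellet reads over 38.2% of the length of 5.8S. The 2 of these bins with pellet reads held 19 and 18, which gives ratios of 10.9 and 10.3 when each is computed against 3 counts. The lower limits of their exact intervals, which allow for counting error in both libraries, were 8.04 and 7.58. For the bin from 6643 to 6662, the deposited identifier gives a single position as its range. Its deposited start, end and length give 20 bp and were used here, so what was counted in this bin is less certain.

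The last 4 bins of 5.8S, from 6703 to 6779, contained 78.4% of its soluble reads, 40 in number, and 84.2% of its pellet reads, 829 in number. In order from the 5' end, the soluble library had 5, 16, 4 and 15 reads in them, and the pellet library had 65, 368, 217 and 179. The ratio was 22.4 from 6703 to 6722 (9.12 to 71.3), 39.6 from 6723 to 6742 (24.1 to 70.1), 93.5 from 6743 to 6762 (36.0 to 346.2) and 20.6 from 6763 to 6779 (12.1 to 37.5). The soluble counts behind these ratios are small, and the intervals are wide. As a whole, 5.8S had a ratio 1.32 times that of both spacers together, with an interval that reached 1 (0.999 to 1.76).

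The levels on the 2 sides of 5.8S differed widely. The first bin of ITS2 had 62.5 times the level of the last bin of ITS1 in the soluble library (42.1 to 92.7) and 36.3 times in the pellet library (33.4 to 39.5). Its level was therefore higher on the ITS2 side in both fractions, and the pellet to soluble ratio of the last ITS1 bin was 1.72 times that of the first ITS2 bin (1.15 to 2.57). Over the whole sides that face 5.8S, the level in ITS2 was 4.86 times that in ITS1 in the soluble library (4.36 to 5.41) and 3.09 times in the pellet library (3.01 to 3.16), and the pellet to soluble ratio was 1.57 times as high on the ITS1 side (1.41 to 1.76). The 32S and 12S precursors of the large subunit keep the ITS2 side, while the ITS1 side is removed before them. Whether this had a part in the differences in level was not tested.

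In ITS2, the reads lay at both ends. The bin next to 5.8S, from 6780 to 6879, held 1644 soluble and 21795 pellet reads, or 267.7 and 6115 CPM per 100 bp, and had a ratio of 22.8 (21.7 to 24.0). From there the level fell bin by bin in both libraries, to 57.5 and 1137 from 6880 to 6979, to 29.3 and 864.2 from 6980 to 7079, and to 9.77 and 253.6 from 7080 to 7179. The ratios of these 3 bins were 19.8 (17.7 to 22.1), 29.5 (25.4 to 34.5) and 26.0 (20.0 to 34.3). The interval of the bin from 6980 to 7079 lay above that of the first bin, while that of the bin from 7080 to 7179 overlapped it.

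The middle of ITS2 was nearly empty. The 4 bins from 7180 to 7579 make up 34.6% of its length, but contained 13 of its soluble reads, or 0.222%, and 340 of its pellet reads, or 0.424%. Of these, 11 soluble and 261 pellet reads lay from 7280 to 7379, with a ratio of 40.9 (22.5 to 82.9). The bins from 7180 to 7279 and from 7380 to 7479 each held 1 soluble read, against 17 and 62 pellet reads, and their ratios of 29.3 (4.59 to 1224) and 106.8 (18.5 to 4287), the highest in ITS2, have wide intervals. The 4 bins together had a ratio of 45.1 (25.9 to 78.4). In RNA45SN1, the 4 windows of 100 bp at the same distance from 5.8S had GC contents from 73.0% to 91.0%, against 78.0% to 88.0% in the other 8 windows of ITS2. The lowest was at the distance of the bin from 7180 to 7279. The highest was at that of the bin from 7480 to 7579, which had no reads. The first 300 bases of these 4 windows, chr21:8440379-8440678, are shown because few reads were counted at this distance, although the place is approximate. They leave out the window at the distance of the bin without reads.
ITS2 middle: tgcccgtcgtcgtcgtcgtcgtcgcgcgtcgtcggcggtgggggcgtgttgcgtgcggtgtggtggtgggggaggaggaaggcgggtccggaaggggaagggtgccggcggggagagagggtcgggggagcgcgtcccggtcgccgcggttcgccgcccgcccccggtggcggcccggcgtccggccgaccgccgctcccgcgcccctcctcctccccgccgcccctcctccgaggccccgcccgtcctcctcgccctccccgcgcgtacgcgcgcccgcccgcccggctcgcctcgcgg

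Toward 28S the level rose again. From 7580 to 7679, 93 soluble and 1324 pellet reads were counted, with a ratio of 24.5 (19.9 to 30.6). From 7680 to 7779 there were 1053 soluble and 14391 pellet reads (ratio 23.5, 22.1 to 25.1), and from 7780 to 7879 there were 2242 and 31865 (24.5, 23.5 to 25.6). The latter was the highest of all 31 bins in both libraries, with 365.1 and 8941 CPM per 100 bp. These 2 bins made up 17.3% of the length of ITS2 and held 56.4% of its soluble and 57.7% of its pellet reads. The last bin (7880 to 7934), which adjoins 28S, had 206 reads in soluble RNA and 2355 in pellet RNA, and its ratio of 19.7 (17.1 to 22.8) was the lowest in ITS2, though not apart from the 19.8 of the bin from 6880 to 6979. The first bin of 28S, from 7935 to 8034, held 774 and 10326 reads, with a ratio of 23.0 (21.4 to 24.7) against 1.09 for 28S as a whole, and the quotient of the last ITS2 bin to it was 0.857 (0.730 to 1.01). This interval included 1, unlike that at the border of 18S with ITS1. The first bin of 28S had 126.0 CPM per 100 bp in soluble RNA and 2897 in pellet RNA. The levels of 28S as a whole were 12144.5 and 13198. The bin held 0.0206% of the soluble and 0.436% of the pellet reads of 28S, so its ratio covers few of them.

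**Figure D3:**
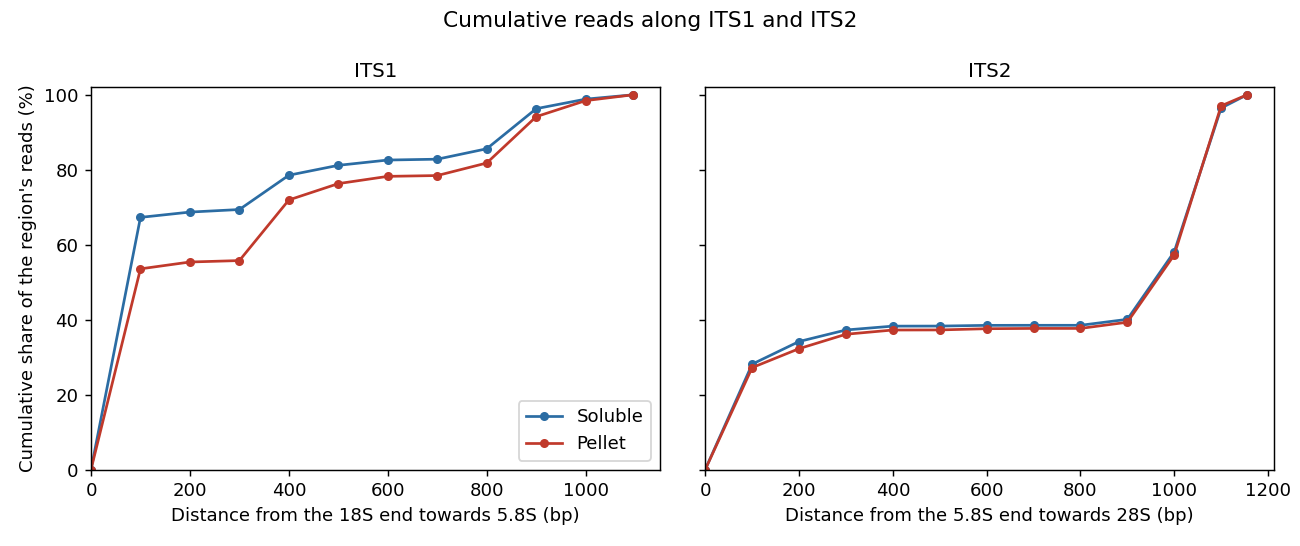
Cumulative share of the reads of ITS1 and of ITS2, in percent, along each spacer in the direction of transcription for the soluble and the pellet library, with 1 point at the end of each bin. In ITS1 the soluble curve stands above the pellet curve from its first bin, at 67.3% against 53.6%, while in ITS2 both curves nearly coincide.

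The 5.8S side and the 28S side of ITS2 were compared in the same manner, because 32S pre-rRNA carries both and 12S pre-rRNA carries the 5.8S side alone. These sides too were set by bin number and not by the cut in ITS2, so they need not match the part that 12S keeps. The 5.8S side, from 6780 to 7379 with 6 bins, had 61.0 CPM per 100 bp in soluble RNA and 1408 in pellet RNA. The 28S side, from 7380 to 7934 with 6 bins, had 105.5 and 2528. The level of the 5.8S side was 0.579 times that of the 28S side in the soluble library (0.549 to 0.610) and 0.557 times in the pellet library (0.549 to 0.565). Of the reads of ITS2, 38.5% lay on the 5.8S side in soluble RNA (37.2% to 39.7%) and 37.6% in pellet RNA (37.3% to 37.9%), and these intervals overlapped.

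The pellet to soluble ratio was 23.1 on the 5.8S side (22.1 to 24.1) and 24.0 on the 28S side (23.2 to 24.8). The quotient was 0.963 (0.912 to 1.02), so that the 2 sides of ITS2 did not differ beyond counting error. Within counting error alone, the quotient could be as low as 0.912. This leaves out variation between preparations and does not show that the sides are alike. With the median of the bins the quotient was 1.38, where the nearly empty bins in the middle count as much as the bins at the ends. The shares themselves depended on single bins. Without the bin from 7780 to 7879, 62.4% of the reads lay on the 5.8S side in both libraries, and with both border bins of ITS2 left out the shares were 15.1% (soluble) and 14.9% (pellet). The libraries stayed close to each other in each case.

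**Figure D4:**
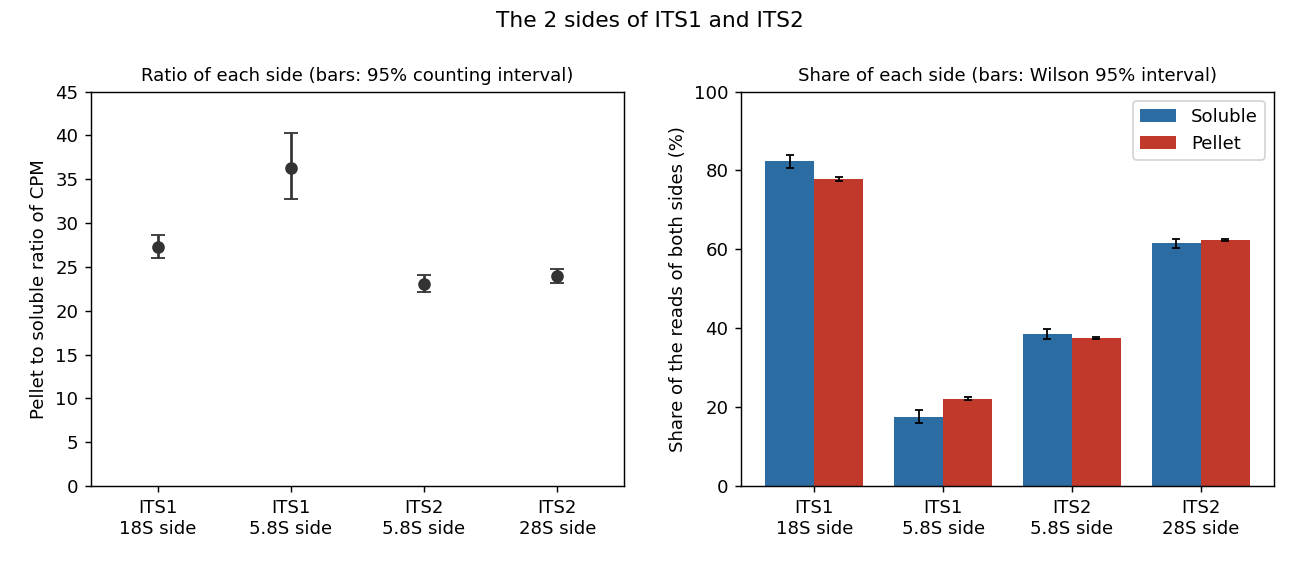
Left, pellet to soluble ratio of CPM for the 2 sides of ITS1 and of ITS2, with 95% counting intervals. Right, share of each side in the reads of both sides for the soluble and the pellet library, in percent, with Wilson 95% intervals. The 5.8S side of ITS1 lies at 36.3 and its 18S side at 27.3, which becomes 47.6 without the bin next to 18S, while the 2 sides of ITS2 lie at 23.1 and 24.0 with overlapping intervals.

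Between the spacers, ITS2 had the higher level in both libraries, 2.52 times that of ITS1 in the soluble library (2.40 to 2.65) and 2.05 times in the pellet library (2.03 to 2.08). Without the first bin of ITS1, ITS2 had 7.01 times the level of ITS1 in the soluble library (6.49 to 7.58) and 4.02 times in the pellet library (3.95 to 4.08). The ratio of ITS1 without this bin was 1.75 times that of ITS2 (1.61 to 1.89). The 4 bins with the most soluble reads, namely the first of ITS1, the first of ITS2 and those from 7680 to 7779 and from 7780 to 7879, were set apart after their values were seen. They held 79.8% of the soluble and 75.0% of the pellet reads of both spacers, and their joint ratio was 23.6 (23.0 to 24.2). The other 19 bins of the spacers had a joint ratio of 31.0 (29.5 to 32.6). Reads of different bins can come from the same molecules, for which the intervals of quotients make no allowance.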

How the data were processed

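Trimmed reads of the soluble and the pellet library were aligned by the authors to the GenBank 45S rDNA sequence with STAR (2.7.8a) after Trim Galore (0.6.6), and counted per bin with featureCounts (2.0.1), versions per the submitters' processing notes. What the authors deposited is a table of raw counts, one value per library for each of 142 bins, whose size is 100 bp, or 20 bp in 5.8S. The treatment of strand, of multi-mapped reads and of reads across bin borders is not given in the sources used here. Bin lengths are other values that the authors deposited with the counts.

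Groups followed the labelled fraction. Counts were scaled to CPM over all bins. Intervals were Wilson for shares, log-scale counting intervals for summed bins, and exact (Clopper-Pearson) for single bins, at 95%. The log-scale and exact intervals, but not the Wilson intervals, were tested on simulated independent counts. Such counts meet the assumption of the intervals, so this does not show that they hold for reads copied by PCR. A bin without soluble reads was set to 3 counts. All bins of the 3 regions are described, and the highest, the lowest and the border bins of each are named. Members, sides and alternatives were chosen with earlier results of these data known. Alternatives changed the scaling, the bins kept, the place of the middle bin, the summary, the pseudocount and a minimum of 10 CPM. Sequences were read from GRCh38 with RefSeq borders. The software was Python (3.11.15) with SciPy (1.17.1) for intervals, NumPy (2.4.6) for sums and matplotlib (3.10.9) for plots.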

Additional observations from a re-analysis of the deposited data

How the results depend on the processing

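Of 78 alternative values, 37 stayed within the counting interval of the value reported (or, for the count of bins, within 1.5 times), 37 moved outside it and 4 turned the direction of a value whose interval did not include 1. Of these 4, 3 are for the quotient of the 18S side to the 5.8S side of ITS1, against 0.752 as reported. It was 1.31 when the bin richest in pellet reads was dropped from every region, 1.32 when both border bins were dropped and 1.26 with bin medians. It was 0.636 with only the 3 outermost bins at each end (4 for ITS2). The bin next to 18S is the one that the first 2 of these settings leave out. The quotient of the sides of ITS2 was 1.38 with bin medians, which also lies across 1, although the interval of the reported 0.963 included 1. The fourth is the quotient of ITS1 to the 5'ETS, at 1.34 without the first bin of ITS1, against 0.942. Some of the 37 values that stayed could not have moved. The 5.8S sides of ITS1 and of ITS2 do not hold the richest bin of their spacer. Dropping that bin left their ratios at 36.3 and 23.1.

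Relative to the 18S plus 28S reads, the ratio was 30.9 for ITS1, 25.1 for ITS2, 29.0 for the 18S side of ITS1, 24.5 for the 5.8S side and 25.5 for the 28S side of ITS2. When the median of the ratios of mature bins set the scale, it was 24.6 for ITS2 and 25.0 for its 28S side. With the richest bin dropped, it was 41.2 for ITS1, 47.6 for its 18S side and 23.1 for the 28S side of ITS2. With both border bins dropped, it was 41.3 for ITS1, 47.3 for 5.8S and 47.6 for the 18S side of ITS1. With bin medians, it was 38.1 for ITS1, 27.8 for ITS2, 48.0 for the 18S side of ITS1, 28.6 for the 5.8S side and 20.7 for the 28S side of ITS2. With the outermost bins, the 18S side of ITS1 had 23.3.

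The share of ITS1 reads on the 18S side was 44.4% (soluble) and 51.1% (pellet) with the richest bin dropped, 46.1% and 53.0% with both border bins dropped, so that the pellet library then had the larger share, and in the pellet library 78.2% or 76.3% with the middle bin on the 18S or the 5.8S side and 75.4% with the outermost bins. The share of ITS2 reads on the 5.8S side was 62.4% in both libraries and 15.1% and 14.9% under the first 2 of these settings. The level of ITS2 over ITS1 was 4.73 (soluble) and 2.65 (pellet) with the richest bin dropped, 5.19 and 3.03 with both border bins dropped, and in the pellet library 1.78 with bin medians. The number of bins with a log2 ratio above 1 was between 26 and 29. It was 26 with a pseudocount of 10 CPM, out of the 29 bins with reads. It was also 26 with a minimum of 10 CPM, which leaves fewer bins to count. The share over all bins is given only for the main setting, so these counts have no such share beside them. The shifts follow from which bins are kept or how the total is set, and no other cause was tested.

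No paired analysis was possible because there is a single library on each side of the comparison and nothing was tested. The intervals leave out the variation between preparations. Depth limits 5.8S, with 51 soluble reads, and the middle of ITS2, with 13.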
